A study of Mus musculus with 8 samples.

Results

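Metaphyseal stromal cells without Mmp9 were examined in single-cell RNA sequencing data from unbroken mouse femurs and from femurs with a healing fracture. Of 45328 cells that passed the filters on gene number and mitochondrial share, 762 met the definition of this population. The definition rests on the measured counts of a few genes, each unique molecular identifier (UMI) standing for 1 captured transcript. A cell had to hold Mmp13 at 10 or more per 10,000 UMIs, Cxcl12 at 3 or more UMIs and Pdgfrb at 1 or more. Adipoq and Mmp9 were each allowed up to 1 UMI, and Cdh5, Ptprc and Lrrc15 none. Bglap and Bglap2 together had to stay under 100 per 10,000 UMIs, and Acan, Hapln1 and Matn3 together under 40. The levels of these genes therefore describe the definition and are not results, and the comparisons below leave them out. Control preparations 1 and 2 contributed 277 and 148 of these cells, Fracture preparations 1 and 2 158 and 179.

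All mice were C57BL/6 females, and the labels call the Control mice wild-type. In the Fracture group the left leg was broken by 3-point bending at 10 weeks of age, was stabilised with an intramedullary needle, and the femur was collected at day 14 after fracture, at 12 weeks. The Control group was unfractured and of the same age. The needle was taken out before a cell suspension was made, and in both groups cells carrying blood lineage antigens, CD45 or CD117 had been removed with magnetic beads. The labels number 2 preparations per group with 2 libraries each, which were read here as repeat draws from 1 cell suspension, and they do not say how many mice went into a preparation. The p-values below therefore measure the spread between 2 preparations per group, which may hold less than the full spread between animals. No value in these data records where in the bone a cell lay, so the word metaphyseal rests on marker genes alone.

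Stromal cells of the metaphysis sit beneath the growth plate, among vessels that grow towards the cartilage, and a similar zone forms where vessels invade the cartilage of a fracture callus. Mmp13 encodes collagenase 3, which cleaves fibrillar collagen, Cxcl12 a chemokine of marrow stroma and Pdgfrb a receptor of perivascular cells. Mmp9 encodes gelatinase B and marks the septoclast, a cartilage-resorbing cell of mesenchymal origin that also carries Fabp5, a fatty acid binding protein. Adipoq marks the adipogenic stroma that fills the marrow of the shaft and supports blood formation. The cells described here share Mmp13 with septoclasts but lack their Mmp9.

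The libraries held between 56543151 and 89126291 UMIs. The median member held 7222 and 7695.5 UMIs in Control, against 7088 and 7724 in Fracture. The medians were close, but 70 of 425 Control members and none of 337 Fracture members held fewer than 3000 UMIs. The median mitochondrial share of the members was 4.5% and 4.49% in Control and 3.08% and 3.25% in Fracture, and its part in the differences below was not tested. Doublets were called in 718 cells overall and in 3 members, no barcode was shared between libraries among the members, and the doublets were kept. Both libraries of Control preparation 1 lacked every gene whose symbol begins with a capital U, 290 symbols of which 239 had at least 20 UMIs in each library of the other preparations. These symbols and 4 ribosomal RNA genes were left out of all libraries, which kept 28662 genes. Log2 CPM values correlated at 0.958 across genes between the Control preparations and at 0.970 between the Fracture preparations, where CPM stands for counts per 1000000 UMIs summed over the members of a preparation.

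The definition narrowed the 45328 cells in steps. Cxcl12 was met by 7919 cells, Pdgfrb then by 5400, and the absence of Cdh5 and Ptprc by 5007. The limits on osteocalcin and cartilage genes left 4787 cells, and Mmp13 left 1771. The limit on Adipoq left 1091, the absence of Lrrc15 left 990 and the limit on Mmp9 the final 762. Just below the Mmp13 threshold, at 8 to 10 per 10,000 UMIs, lay 40 cells with a median of 8.96, and just above it, at 10 to 12, lay 35 members with a median of 11.1. The median member held 45.5 Mmp13 UMIs per 10,000, 11 Cxcl12 UMIs and 3 Pdgfrb UMIs. Mmp9 was at 0 in 679 members and at 1 UMI in 83, while 43 excluded cells held 2 UMIs, 26 held 3 and 159 held 4 or more with a median of 21. Free RNA in droplets can add single UMIs, so that cells with 1 or 2 UMIs of Mmp9 are not cleanly divided by this limit.

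Neighbouring classes, 3 in all, were taken from the same tables, each meeting the same definition with 1 limit turned round. The 228 Mmp9 cells held at least 2 UMIs of Mmp9, the 91 Lrrc15 cells at least 1 UMI of Lrrc15, and the 2901 Adipoq cells at least 2 UMIs of Adipoq with no minimum of Mmp13. Of all cells, the members made up 2.17% and 1.87% in Control, against 1.33% and 1.4% in Fracture. The mean share was 2.02% ± 0.214 in Control and 1.37% ± 0.0485 in Fracture (SD, n = 2 preparations each). The totals differed in depth, since 10245 of 12755 and 6732 of 7921 Control cells held at least 3000 UMIs, against 11859 of 11867 and 12774 of 12785 Fracture cells, and at 3000 UMIs per cell the shares were 1.45% and 1.35% in Control and 0.776% and 0.908% in Fracture. Among the stromal cells with Cxcl12 and Pdgfrb and without Cdh5 and Ptprc the order was the opposite. There the members were 277 of 2339 cells (11.8%) and 148 of 1539 (9.62%) in Control, against 158 of 531 (29.8%) and 179 of 598 (29.9%) in Fracture. The difference of 19.1 percentage points became 36.0 after thinning to 3000 UMIs and 10.1 with only members holding at least 2 UMIs of Kcnk2 and Limch1 together. For both shares no Control preparation lay within the range of Fracture, and a two-sided exact permutation test gave p = 0.333, the smallest p that 2 against 2 preparations allow. Mmp13 and Cxcl12 define the class, and the part of a shift in either gene in these shares was not tested.

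Over the same stromal cells the Mmp9 cells made up 2.20% ± 0.816 (SD, n = 2) in Control and 12.3% ± 1.03 in Fracture, and the Adipoq cells 72.8% ± 7.37 and 10.7% ± 1.49. Lrrc15 cells numbered 4 and 0 in Control, against 38 and 49 in Fracture. Their median depth in Fracture was 10024.5 and 12904 UMIs, against 7088 and 7724 UMIs in the Fracture members. The part of cells with undetected Lrrc15 among the members was not tested. The members' mean share of 10.7% in Control and 29.8% in Fracture thus refers to pools of different makeup, most of the Control pool being Adipoq cells. Its size was 2339 and 1539 cells for Control, against 531 and 598 for Fracture.

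**Figure D1:**
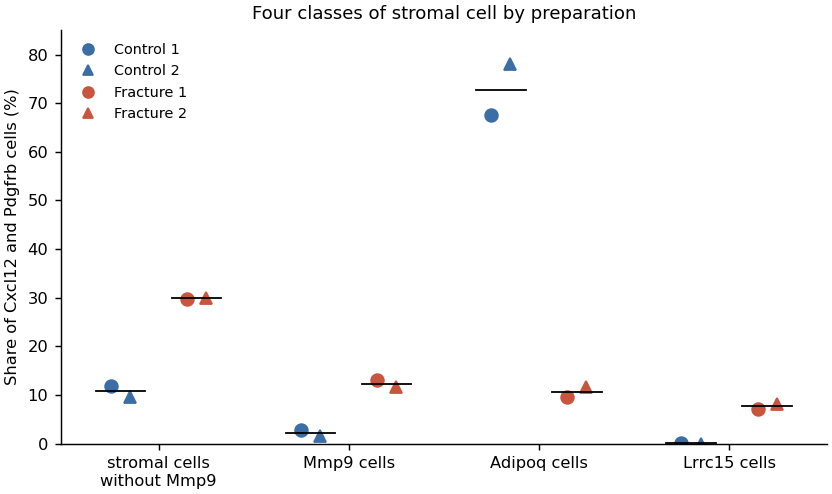
Share of 4 stromal classes among cells with Cxcl12 and Pdgfrb and without Cdh5 and Ptprc (vertical axis, %), with 1 point per preparation (Control and Fracture by colour, preparation 1 and 2 by symbol) and black bars at the group means. The stromal cells without Mmp9 sit at 9.62% and 11.8% in Control and at 29.8% and 29.9% in Fracture, while the Adipoq cells drop from 72.8% to 10.7% on average.

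The label was checked against 5 genes given as markers of the population. Kcnk2 encodes a potassium channel of the tandem-pore family (GRCm38 chr1:189207930-189402273, minus strand), and Limch1 an actin-associated protein (chr5:66745827-67057158, plus strand). Postn encodes the matrix protein periostin (chr3:54361109-54391037, plus strand), A2m the protease inhibitor alpha-2-macroglobulin (chr6:121635376-121679227, plus strand), and Tnfrsf19 a receptor of the tumour necrosis factor family (chr14:60963875-61046490, minus strand). Averaged over the 4 preparations, Limch1 stood at 824.5 CPM in the members and 52.4 CPM in all other cells, a ratio of 15.7, and Kcnk2 at 351.8 and 23.2 CPM, a ratio of 15.2. A2m had a ratio of 12.2. All 5 were higher in the Control members than in the Control Mmp9 cells and Control Adipoq cells, in each preparation. In Control, Kcnk2 reached 397 and 552 CPM in the members, 129 and 146 CPM in the Mmp9 cells and 155 and 153 CPM in the Adipoq cells. These levels are descriptions, since the members were chosen by the counts of the same cells. In Fracture the label held less well. Kcnk2 was then higher in the Adipoq cells, at 388 and 398 CPM, than in the members, at 193 and 265 CPM. Limch1, at 739 and 628 CPM against 555 and 517 CPM, and Tnfrsf19, at 286 and 335 CPM against 114 and 127 CPM, were higher in the Fracture Adipoq cells as well. Tnfrsf19 was also above the members in the Fracture Mmp9 cells, at 134 and 135 CPM, and Postn was higher in the few Lrrc15 cells, at 3580 and 3383 CPM, than in the members.

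Ranked by the ratio to all other cells, the leading genes of the population were Sftpa1 (surfactant protein A, ratio 52.1, mean 65.9 CPM in the members), Angpt4 (an angiopoietin ligand, ratio 32.3, 267 CPM) and Tnc (the matrix protein tenascin C, ratio 17.5, 4196 CPM). Limch1, Kcnk2, Apol6, Pi15, Col8a1, A2m, Col25a1, Tenm4, Tmem86a, Olfml2b, the protease inhibitor gene Serpine2 and the oestrogen receptor gene Esr1 followed, with ratios from 10.6 to 15.7. Serpine2 and Tnc were the most abundant of them, with Serpine2 at 4896 CPM in the members against 456 CPM elsewhere. Sftpa1 was found in only 93 of 425 Control members and 18 of 337 Fracture members.

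Set against the Mmp9 cells, the members had more H19 (ratio 19.9), Fndc1 (19.2), Mfap5 (9.9), Sftpa1 (9.3) and Aspn (9.2). The ratios average all 4 preparations, and those of H19, Fndc1, Mfap5 and Aspn came mainly from Fracture. The Control members held H19 at 7.91 and 1.51 CPM, Fndc1 at 2.79 and 2.27 CPM and Mfap5 at 2.33 and 1.51 CPM, while Sftpa1 was higher in Control, at 57.7 and 164 CPM. The counts of the Mmp9 cells behind these ratios were low, with 10 UMIs of H19 and 19 of Fndc1 in all. Members had less of Otos, at 1.65 against 51.5 CPM, of the somatostatin receptor gene Sstr2, at 9.80 against 92.4 CPM, and of Cd55, at 38.6 against 248 CPM. Fabp5 (chr3:10012548-10016607, plus strand) stood at 115 CPM in the members and 474 CPM in the Mmp9 cells. In Control the gap in Fabp5 was wide, with 14.0 and 8.32 CPM in the members against 422 and 267 CPM in the Mmp9 cells.

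Set against the Adipoq cells, the members had more Spp1, the bone matrix protein osteopontin, at 34264 against 2699 CPM, and more Postn, at 1134 against 95 CPM. They had less of the lipoprotein lipase gene Lpl, at 160 against 4151 CPM, and less of Chrdl1, at 30.7 against 737 CPM. S100a8 and S100a9, genes of neutrophils, also ranked as lower in the members, but the Adipoq cells of Fracture preparation 2 alone carried them, at 1533 and 1681 CPM, against at most 5.97 CPM in their other preparations.

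**Figure D2:**
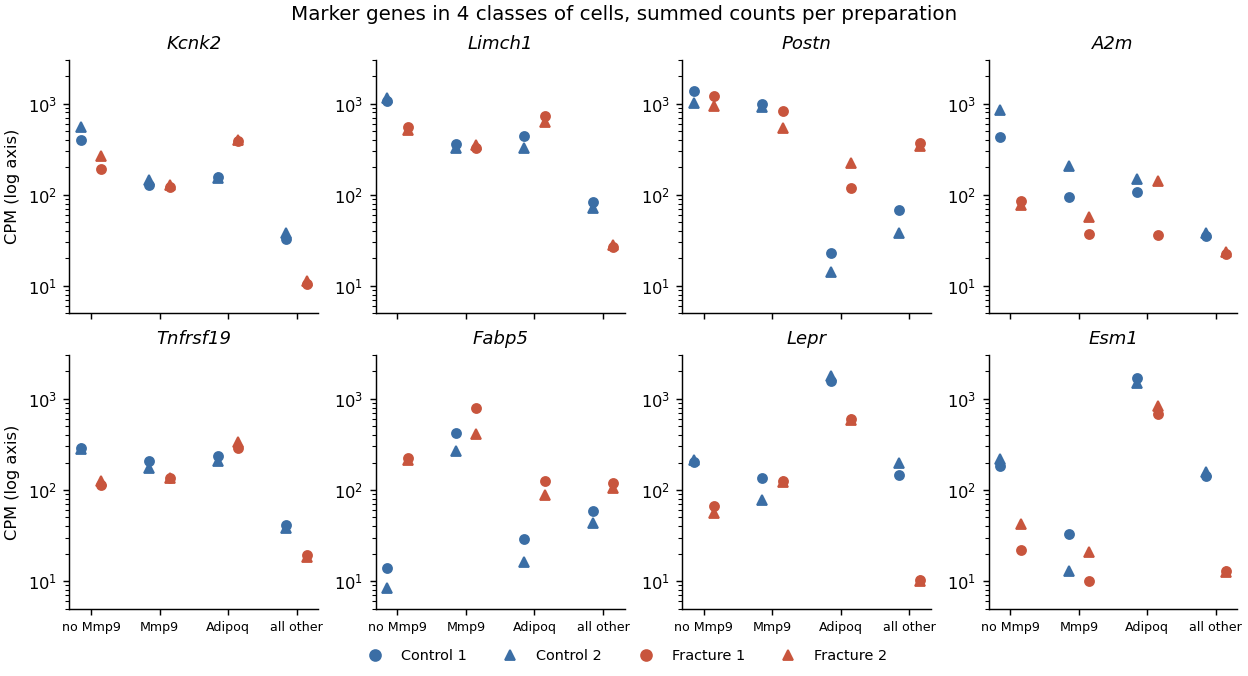
CPM on a log axis of 8 genes in the stromal cells without Mmp9, the Mmp9 cells, the Adipoq cells and all other cells, with 1 point per preparation (Control and Fracture by colour, preparation 1 and 2 by symbol). Limch1 lies at 1064 and 1162 CPM in the Control members and at 555 and 517 CPM in the Fracture members, and Fabp5 at 14.0 and 8.32 CPM and at 222 and 215 CPM.

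Fracture was then compared with Control within the members, by the quasi-likelihood test of edgeR on counts summed per preparation, with Benjamini-Hochberg adjustment over all genes tested and calls at an adjusted p under 0.05. Of 9985 genes tested, 882 (8.83%) rose and 760 (7.61%) fell after fracture, 1642 (16.4%) in all. At least a 2-fold change was fitted for 506 of the genes that rose and 370 of those that fell. The 2 preparations of each group lay apart for every one of the called genes, which was also so for 26.3% of all tested genes in the upward and 34.3% in the downward direction. The median log2 fold change over all tested genes was -0.01. The counts depended on the tool and the preparations, with 426 higher and 250 lower genes by DESeq2, 488 and 350 without Fracture preparation 1 and 442 and 324 without Fracture preparation 2, and in none of these did a called gene change sign. After thinning to 3000 UMIs and renewed selection the counts were 211 and 204, and 23 and 14 of the called genes changed sign.

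The markers themselves were among the genes that fell. Limch1 went from 1064 and 1162 CPM in Control to 555 and 517 CPM in Fracture (log2 fold change -1.0 ± 0.13 (SE), edgeR adjusted p = 0.00084, 2 preparations per group). Kcnk2 went from 397 and 552 CPM to 193 and 265 CPM (log2 fold change -0.99 ± 0.20, adjusted p = 0.00859). A2m had the largest fall of the 5, from 434 and 860 CPM to 84.9 and 76.2 CPM (-2.94 ± 0.29, adjusted p = 0.000182). Tnfrsf19 went from 291 and 280 CPM to 114 and 127 CPM (-1.19 ± 0.13, adjusted p = 0.000355). Postn alone was not called, with 1367 and 1021 CPM in Control against 1217 and 932 CPM in Fracture, groups that overlap (-0.10 ± 0.18, adjusted p = 0.756). After every cell was thinned to 3000 UMIs, which left out 70 shallower Control members and no Fracture member, Limch1 was detected in 87.0% ± 1.76 (SD, n = 2) of the Control members and 56.9% ± 4.59 of the Fracture members. A2m was detected in 41.2% and 8.86%.

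Because 4 of 5 markers fell, members with at least 2 UMIs of Kcnk2 and Limch1 together were fitted on their own, a choice made after the data were seen. They were 243 and 136 cells in Control and 104 and 119 in Fracture. With them, 372 (4.06%) of 9154 genes rose and 281 (3.07%) fell, the shares against which list counts in the marker-bearing cells are to be read, and 329 and 268 of these were shared with the calls over all members. The shared genes were 37.3% and 35.3% of the calls over all members and 88.4% and 95.4% of the calls in the marker-bearing cells. A2m still fell (-2.26 ± 0.25) and so did Tnfrsf19 (-0.57 ± 0.14, adjusted p = 0.0272), while Kcnk2 and Limch1, on which these cells were chosen, gave -0.32 and -0.30 with no call. Of the named genes 36 kept their sign but were no longer called in these cells, among them Csf1, Dkk3, Bmp5, Ctsd, Ctsk, Ifitm3, Mcm5, Igfbp7, Col2a1, Itga5, Lox and P4ha2.

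Notch genes were looked at because Notch signalling shapes stromal cells beside growing vessels. None of the 4 tested target genes Hes1, Hey1, Hey2 and Heyl was called, and their median log2 fold change was -0.18. Hey1 stood at 67.0 and 43.8 CPM in Control and 44.4 and 47.5 CPM in Fracture (-0.25 ± 0.22, adjusted p = 0.491), with overlapping groups. Heyl stood at 50.3 and 53.7 CPM against 45.1 and 41.8 CPM (-0.20 ± 0.17, adjusted p = 0.473). Of 3 tested receptors and ligands, Notch2 fell by 0.50 ± 0.14 on the log2 scale (adjusted p = 0.0386), and Notch3 (-0.19) and the ligand gene Jag1 (-0.45, adjusted p = 0.0677) were not called. Without Control preparation 1 or in the marker-bearing cells the sign of Hey1 turned, to 0.14 and 0.35, so that no direction can be given for it. In the marker-bearing cells Heyl (0.27) and Notch3 (0.16) turned sign too, the 3 tested targets had a median of 0.33, and Notch2 was not called (-0.39 ± 0.16, adjusted p = 0.165).

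Genes of the septoclast program did not move as 1 block. Fabp5 rose from 14.0 and 8.32 CPM to 222 and 215 CPM (4.27 ± 0.20, adjusted p = 5.12e-06). In cells thinned to 3000 UMIs it was found in 3.51% ± 0.645 (SD, n = 2) of Control members and 23.4% ± 0.0325 of Fracture members. The rise of Fabp5 was smaller in the marker-bearing cells, from 13.9 and 7.8 CPM to 50.9 and 77.4 CPM (2.53 ± 0.31, adjusted p = 0.000106). Of its 634 UMIs in the Fracture members, 38.3% lay in 5 of 128 cells. Fabp5 was not particular to the members in rising. The Adipoq cells went from 28.6 and 16.3 CPM to 125 and 88.1 CPM, and all other cells from 59.0 and 43.6 CPM to 120 and 106 CPM. The Fracture Lrrc15 cells stood at 331 and 363 CPM. The rise was larger in the members than in the Adipoq cells by the test of a difference in effect given below. As a measure of free RNA, haemoglobin-rich cells were taken, which carried at least 500 haemoglobin UMIs per 10,000 and should not express stromal genes. At the same depth they held Fabp5 in a mean of 1.6% in Control and 8.42% in Fracture. These means rest on 0 of 18 and 3 of 94 Control cells, and on 19 of 213 and 21 of 265 Fracture cells. The median depth of haemoglobin-rich cells before thinning was 12632.5 UMIs in Control and 6923.5 in Fracture, against 8443 and 7370 in the members. The metalloproteinase gene Mmp11, a stromelysin, was not called (0.48 ± 0.21, adjusted p = 0.161).

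Of 7 tested matrix metalloproteinase genes outside the definition, 4 rose and none fell, with a median log2 fold change of 0.94. Mmp14, whose product sits in the cell membrane and cleaves collagen, rose from 356 and 320 CPM to 596 and 746 CPM (1.04 ± 0.15, adjusted p = 0.00173). The Fracture Lrrc15 cells held it at 1317 and 1052 CPM. Mmp2, a gelatinase, rose from 270 and 132 CPM to 584 and 597 CPM (1.59 ± 0.27, adjusted p = 0.00362), and Mmp23 by 0.94 ± 0.13. The fourth was Mmp3, another stromelysin, of which 91.5% of the 413 Fracture UMIs lay in 1 cell. Among 5 tested inhibitors of metalloproteinases Timp2 rose (0.81 ± 0.13) and A2m fell. Of 12 lysosomal genes, cathepsins and the membrane protein genes Lamp1 and Lamp2, 4 cathepsins were higher, with a median of 0.06 over the 12. The higher ones included Ctsh (0.93 ± 0.17), Ctsd (0.79 ± 0.14) and Ctsk (0.71 ± 0.13), and Ctsh alone was called in the marker-bearing cells. The aggrecanase genes went both ways, with Adamts4 (1.64 ± 0.23) and Adamts1 (1.04 ± 0.18) higher and Adamts5 (-1.13 ± 0.13) lower.

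Many fibrillar collagens and their companions rose. Of 24 tested genes 16 rose and 1, Tnc, fell, against 8.83% and 7.61% of all genes, and the median log2 fold change was 1.17. Col3a1, the collagen of early repair tissue (chr1:45311538-45349706, plus strand), rose from 238 and 69.5 CPM to 4238 and 5194 CPM (4.96 ± 0.46, adjusted p = 0.00014). Of its 604 Control UMIs, 28.6% lay in 1 cell. The small leucine-rich proteoglycan genes Aspn and Fmod rose from 31.6 and 9.07 CPM to 535 and 562 CPM (4.69 ± 0.34) and from 40.5 and 13.6 CPM to 600 and 615 CPM (4.45 ± 0.32). Fn1, fibronectin, went from 737 and 812 CPM to 5015 and 5139 CPM (2.77 ± 0.13, adjusted p = 5.12e-06), and Thbs2, a thrombospondin, from 46.5 and 33.3 CPM to 493 and 547 CPM (3.73 ± 0.18). Tnc, in contrast, fell from 5268 and 5887 CPM to 3112 and 2516 CPM (-0.93 ± 0.14, adjusted p = 0.00218). In the marker-bearing cells 15 of the 24 rose and Tnc was not called (-0.44 ± 0.14, adjusted p = 0.0749). The Fracture Lrrc15 cells stood at 17746 and 15388 CPM for Col3a1 and at 8077 and 5660 CPM for Fn1. The part of cells with undetected Lrrc15 in these rises was not tested.

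Enzymes that mature and join collagen moved the same way, with 9 of 12 tested higher, none lower and a median of 0.77. Loxl2 (2.15 ± 0.25) and Lox (1.21 ± 0.15) encode lysyl oxidases, and P4ha3 (2.13 ± 0.20) and P4ha2 (1.64 ± 0.17) subunits of prolyl 4-hydroxylase. In the marker-bearing cells 2 of the 12 rose, with a median of 0.36, and Lox (0.31 ± 0.15, adjusted p = 0.246) and P4ha2 (0.78 ± 0.28, adjusted p = 0.12) were not called. Basement membrane genes rose in 4 of 10 cases, led by Nid1 (2.02 ± 0.20), and 1, Lamb2, fell. Of these 10, only Nid1 rose in the marker-bearing cells (1.55 ± 0.25), where Hspg2, Lamb1 and Col18a1 were not called. Free RNA of matrix genes was common in the Fracture libraries, where haemoglobin-rich cells held Fn1 in 68.8%, Col3a1 in 43.8%, Fmod in 28.3% and Aspn in 13.4% of cells thinned to 3000 UMIs. The Fracture members held these genes in 96.9%, 81.3%, 43.2% and 29.2%, above that level in each case. The part of free RNA in these rises was not tested.

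Osteoblast lineage genes went down, 12 of 17 tested, with 3 up and a median of -0.89. Runx2, a transcription factor that sets the osteoblast lineage, fell from 523 and 584 CPM to 268 and 307 CPM (-0.89 ± 0.14, adjusted p = 0.00249), and Sp7, osterix, from 260 and 163 CPM to 122 and 106 CPM (-0.86 ± 0.21, adjusted p = 0.0204). Genes of the osteoblast surface and matrix fell further, with Col22a1 going from 85.6 and 71.1 CPM to 9.18 and 12.5 CPM (-2.78 ± 0.23) and Ifitm5 from 128 and 105 CPM to 22.9 and 18.1 CPM (-2.46 ± 0.20). Spp1 remained very abundant but fell from 49889 and 40538 CPM to 27474 and 19153 CPM (-0.90 ± 0.18, adjusted p = 0.00844). The 3 genes that rose were Col1a1, Col1a2 and Sparc, which fibroblasts also make. All 4 tested osteoblast markers outside the definition fell. Their summed level, most of it from Ibsp, was 12204 and 11554 CPM in the Control members and 8420 and 6539 CPM in the Fracture members. The remaining cells stood at 3631 and 3290 CPM in Control, below the members, and at 10149 and 10548 CPM in Fracture, above them. In the marker-bearing cells 6 of the 17 lineage genes fell, and Runx2 (-0.51 ± 0.15, adjusted p = 0.0510), Sp7 (-0.54 ± 0.20, adjusted p = 0.116) and Spp1 (-0.53 ± 0.16, adjusted p = 0.0668) were not called.

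Genes of the marrow niche were lower as well, 9 of 18 tested, with 2 higher and a median of -0.59. Of the 18, 5 were lower in the marker-bearing cells, where the median was -0.24. Esm1, an endothelial cell-specific molecule that also marks stroma of the shaft, fell from 182 and 216 CPM to 22.2 and 41.8 CPM (-2.54 ± 0.23, adjusted p = 0.000132). Lepr, the leptin receptor, fell from 200 and 215 CPM to 66.5 and 55.6 CPM (-1.71 ± 0.14, adjusted p = 7.08e-05). Apoe (-1.85 ± 0.14) and the adhesion molecule gene Vcam1 (-1.54 ± 0.15) followed, as did Kitl, Foxc1, Ebf3, Ebf1 and Csf1. The adipogenic genes Cebpa, Pparg and Lpl were not called. Igf1 and Hp rose. The 6 markers of shaft stroma outside the definition summed to 1267 and 1209 CPM in the Control members and 916 and 1164 CPM in the Fracture members. The remaining cells stood at 1407 and 1574 CPM and at 160 and 189 CPM. At 3000 UMIs haemoglobin-rich cells held Esm1 in a mean of 4.37% in Control and 2.82% in Fracture, and Lepr in 9.93% and 3.34%. The Control means rest on 1 of 18 and 3 of 94 cells for Esm1, and on 3 of 18 and 3 of 94 for Lepr. The part of free RNA in these falls was not tested.

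The 10 largest rises among genes with a mean of at least 20 CPM were those of Saa3, Mmp3, Ptgs2, Megf6, C1qtnf3, Ddah1, Ccl2, Fndc1, Matn4 and Penk. Saa3, an acute-phase gene, had no UMI in Control and 713 in Fracture, at least 284-fold higher against a floor of 3 counts over the Control group. However, 52.7% of these UMIs lay in 1 cell and 95.7% in 5 cells. Mmp3 likewise rested on few cells, with 6 Fracture members holding it. Ccl2 had 2 Control UMIs and 207 Fracture UMIs in 25 cells, a ratio of 124 with a 95% counting interval of 33.8 to 1027. Of these Fracture UMIs of Ccl2, 76.8% lay in 5 cells and 132 in 1 library. Ptgs2, prostaglandin synthase 2, had 1 and 201 UMIs in 55 Fracture cells (ratio 240, interval 42.6 to 9524), with 44.8% of the 201 in 5 cells. Ddah1 had 1 and 139 UMIs (ratio 166, interval 29.3 to 6600). These intervals and the floor cover counting error only. Saa3, Mmp3, Ddah1 and Ccl2 were not tested in the marker-bearing cells. In Fracture these cells held Saa3 at 1.38 and 3.18 CPM and Mmp3 at 0 and 1.06 CPM. Ddah1 stood there at 2.75 and 7.42 CPM and Ccl2 at 16.5 and 6.36 CPM. Ptgs2, Megf6, C1qtnf3, Fndc1, Matn4 and Penk were tested in the marker-bearing cells and called higher.

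Fndc1, Matn4 and Megf6 were spread over more cells. Fndc1, a fibronectin domain protein (chr17:7738569-7827302, minus strand), rose from 2.79 and 2.27 CPM to 247 and 337 CPM (6.83 ± 0.28, adjusted p = 5.12e-06) and was found in 105 of 337 Fracture members, the top cell holding 3.82% of its UMIs. Matn4, a matrilin of cartilage, rose from 9.77 and 3.02 CPM to 623 and 420 CPM (6.24 ± 0.34), in 106 Fracture members. Megf6 had 2 Control and 325 Fracture UMIs (ratio 194, interval 53.3 to 1609) in 83 cells. At 3000 UMIs per cell Fndc1 was detected in 23.6% of Fracture members and 3.76% of haemoglobin-rich Fracture cells, Megf6 in 13.7% and 1.22%, and Matn4 in 23.1% and 13.2%. For C1qtnf3 the members stood at 17.2% and the haemoglobin-rich cells at 17.0%. Of its 549 UMIs in the Fracture members, 34.8% lay in 5 of 99 cells. The part of free RNA in the rise of C1qtnf3 was not tested. Penk, which encodes the enkephalin precursor, rose from 2.33 and 0 CPM to 142 and 61.8 CPM (6.10 ± 0.64), and 68.3% of its Fracture UMIs lay in 5 of 28 cells.

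Among the 10 largest falls were those of Prss34, Gdf10, A2m, Ptprz1, Gdpd2, Cyfip2, Sftpa1, Fign and Cxcl14. Gdf10, a ligand of the bone morphogenetic protein family (chr14:33923587-33937983, plus strand), fell from 67.5 and 55.2 CPM to 3.06 and 5.0 CPM (-3.83 ± 0.30, adjusted p = 5.82e-05). It was found in 107 of 425 Control members and 9 of 337 Fracture members. The chemokine gene Cxcl14 fell from 453 and 678 CPM to 88.7 and 141 CPM (-2.23 ± 0.24, adjusted p = 0.000339), and Sftpa1, the gene with the highest ratio to all other cells, from 57.7 and 164 CPM to 27.5 and 14.4 CPM (-2.32 ± 0.49, adjusted p = 0.0108). Of the 59 Fracture UMIs of Sftpa1, 67.8% lay in 5 of 18 cells. Ptprz1 (-2.79 ± 0.41), a receptor tyrosine phosphatase, and Cyfip2 (-2.33 ± 0.17), an actin regulator, also fell. Prss34 is a protease of basophils and fell from 79.6 and 26.5 CPM to 4.59 and 0.625 CPM. At 3000 UMIs it was detected in 56 of 229 (24.5%) and 11 of 126 (8.73%) Control members, and in 3 of 18 (16.7%) and 6 of 94 (6.38%) haemoglobin-rich Control cells. The part of free RNA in this fall was not tested.

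Secreted regulators changed in both directions. All 7 tested Wnt antagonists were called, with Frzb (4.02 ± 0.29), Sfrp2 (3.43 ± 0.40), Dkk3 and Sfrp1 higher and Dkk1, Wif1 and Sfrp4 lower. Of the 147 Fracture UMIs of Frzb, 55.1% lay in 5 of 58 cells. Wif1 fell from 1709 and 1139 CPM to 571 and 574 CPM (-1.26 ± 0.19, adjusted p = 0.00182). Dkk1 had 57 Control UMIs and 1 Fracture UMI, a ratio of 47.7 with an interval of 8.23 to 1919, and 56.1% of the Control UMIs lay in 1 cell. Among 11 genes of bone morphogenetic proteins and their antagonists, Fst, follistatin, rose from 59.1 and 45.4 CPM to 225 and 227 CPM (2.14 ± 0.15, adjusted p = 3.67e-05), while Nog (-2.18 ± 0.39), Bmp3 (-1.91 ± 0.20) and Bmp5 (-1.58 ± 0.39) fell. The marker-bearing cells had 4 higher and 2 lower of the 11, and 2 higher and 3 lower of the 7 Wnt antagonists.

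Of 13 genes of TGF-beta signalling 5 rose, among them the ligand genes Tgfb2 (3.56 ± 0.36) and Inhba (3.01 ± 0.34) and the target gene Tgfbi, and 1, the co-receptor gene Tgfbr3, fell. Of 10 genes of the insulin-like growth factor system 6 rose and Igfbp5 fell, with a median of 0.94, and in the marker-bearing cells 3 of 8 rose, with a median of 0.09. Igf1 went from 177 and 172 CPM to 419 and 410 CPM (1.30 ± 0.13, adjusted p = 0.000177). H19 rose from 7.91 and 1.51 CPM to 115 and 189 CPM (4.86 ± 0.41), but was detected in 12.2% of Fracture members against 8.80% of haemoglobin-rich cells. Vegfa, the chief ligand of vessel growth, fell from 228 and 177 CPM to 121 and 95.6 CPM (-0.86 ± 0.17, adjusted p = 0.00805), and the 13 angiogenic genes were called 3 up and 3 down. Cxcl1, counted among them, had no Control UMI and 82 Fracture UMIs, at least 32.6-fold higher, and 64.6% of these lay in 5 of 25 cells. In the marker-bearing cells none of 11 tested angiogenic genes rose and 2 fell. The osteoclast regulators Tnfsf11 and Tnfrsf11b, which encode RANKL and its decoy receptor, were not called, and Csf1 fell by 0.52 ± 0.12 on the log2 scale (adjusted p = 0.0192). Of 8 hedgehog genes Ptch1 fell and the others were not called.

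Early response genes rose together, 13 of 16 tested with none lower and a median of 1.10. Of 13 tested 7 rose in the marker-bearing cells. Jun went from 285 and 343 CPM to 697 and 597 CPM (1.10 ± 0.15, adjusted p = 0.00109) and Fos from 644 and 488 CPM to 1108 and 1118 CPM (1.03 ± 0.15, adjusted p = 0.00202). Atf3 was the largest, from 1.86 and 0.756 CPM to 31.4 and 26.9 CPM (4.32 ± 0.43), with 45.2% of its 84 Fracture UMIs in 5 of 37 cells. Such genes also respond to enzymatic digestion of tissue, and the part of handling in their rise was not tested. The heat shock genes Hspa1a and Hspa1b on the same list were not called.

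Glycolysis and hypoxia genes rose in 10 of 15 cases with none lower and a median of 1.09, among them Hk2 (2.25 ± 0.21), which encodes hexokinase 2, Eno1 (1.57 ± 0.16) and Pkm (1.4 ± 0.14). Of 13 tested in the marker-bearing cells 6 rose. Metallothionein genes were higher, with Mt1 going from 35.4 and 38.6 CPM to 168 and 247 CPM (2.55 ± 0.21). In antigen presentation, 3 of 10 genes fell, H2-K1 (-1.27 ± 0.12), H2-D1 (-1.08 ± 0.12) and B2m (-0.81 ± 0.12), all parts of the class I complex, and 1 of the class II genes, H2-Ab1, rose. Complement and acute-phase genes were called 3 up and 2 down of 10, with C4b (-2.09 ± 0.20) among those that fell. Of 10 tested chemokine and cytokine genes 4 rose, Ccl7 (4.52 ± 0.42) among them, and 2 fell. Of the 115 Fracture UMIs of Ccl7, 76.5% lay in 5 of 17 cells. In the marker-bearing cells none of 6 tested genes of this list rose. Of 12 interferon response genes 2 rose, Irf1 (0.99 ± 0.18) and Ifitm3 (0.44 ± 0.12), while in the marker-bearing cells 1 of 11 rose and 1 fell. The chaperone genes Hspa5 (-1.10 ± 0.12) and Sdf2l1 (-1.33 ± 0.17) fell in a secretory list of 15 that had 2 genes higher and 3 lower, against 0 and 3 in the marker-bearing cells. With 8.83% of all genes higher and 7.61% lower, nothing is read from the small counts of the complement, interferon, secretory and hedgehog lists.

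**Figure D3:**
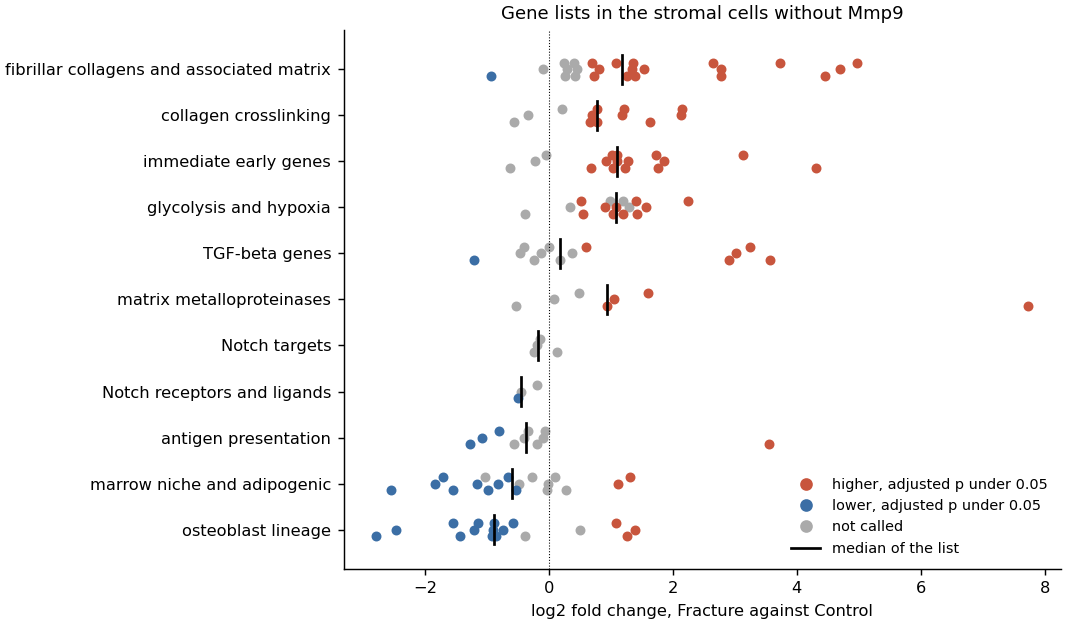
Log2 fold change of Fracture against Control (horizontal axis) for the genes of 11 lists in the stromal cells without Mmp9, with 1 point per tested gene, coloured by call at an adjusted p under 0.05, and black bars at the list medians. Matrix, crosslinking, early response and glycolysis lists lie mostly to the right, with medians of 1.17, 0.77, 1.10 and 1.09, and the osteoblast and marrow niche lists to the left, at -0.89 and -0.59.

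Genes of integrins and the actin cytoskeleton were called 6 up and 2 down of 14, with Tpm2 (1.39 ± 0.18), Itga5 (1.27 ± 0.24) and Myl9 (1.22 ± 0.17) among the higher and Itgb3 (-1.15 ± 0.20) among the lower. Among the 14, 4 rose and 1 fell in the marker-bearing cells, and Itga5 was not called.

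Of 19 tested cell division genes Cdk1 (1.38 ± 0.36) and Mcm5 (1.13 ± 0.29) rose, near the 8.83% of all genes, and the rest were not called, with a median of 0.65. In cells thinned to 1000 UMIs, Top2a or Mki67 was detected in 17 of 271 and 3 of 148 Control members and in 12 of 158 and 17 of 179 Fracture members. The shares were 4.15% ± 3.0 (SD, n = 2) and 8.55% ± 1.35, did not overlap, and gave p = 0.333 in the two-sided exact permutation test. Without thinning they were 13.8% and 21.3%.

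Markers of other cell types moved with some of these groups. The summed level of the 3 chondrocyte markers outside the definition was 1659 and 619 CPM in the Control members and 3479 and 4251 CPM in the Fracture members, against 9285 to 54282 CPM in the remaining cells. Of these Col9a1 and Col2a1 rose, though 31.4% of the Control UMIs of Col2a1 lay in 1 cell, and Col2a1 was detected in 91.7% of Fracture members and 93.8% of haemoglobin-rich Fracture cells at equal depth. The 6 fibroblast markers summed to 147 and 86.9 CPM and to 438 and 417 CPM, with Mfap5 (5.70 ± 0.27), Igfbp6 (3.89 ± 0.31) and S100a4 called higher of 4 tested. The 5 smooth muscle and pericyte markers summed to 324 and 245 CPM and to 779 and 886 CPM, where Acta2, smooth muscle actin, rose from 131 and 112 CPM to 510 and 502 CPM (2.11 ± 0.14), Tagln and Rgs4 rose and Myh11 fell. Of the Control UMIs of Acta2, 41.3% lay in 1 cell. The 9 blood markers outside the definition varied with the preparation rather than the group, at 82.8 and 3456 CPM and at 304 and 2364 CPM. The 4 endothelial markers outside the definition summed to 19.9 CPM or less, and the 5 osteoclast markers to 240 and 209 CPM in Control and 337 and 367 CPM in Fracture, against 121 to 173 CPM in the remaining cells. Of the latter list Ctsk rose and Calcr was at 0. The part of chondrocyte, fibroblast or smooth muscle RNA in the rises of matrix genes was not tested.

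Single cells were then placed by markers and by genes that rose. The first set was Kcnk2, Limch1 and A2m and the second Thy1, Fndc1, Mfap5, Penk, Mmp3 and Saa3, both chosen after their values were seen, so that the counts are a description. In Control, 92.9% ± 2.25 (SD, n = 2) of the members thinned to 3000 UMIs held only genes of the first set, 1.05% held both, 0.873% only the second and 5.22% neither. In Fracture 57.4% ± 2.12 held only the first set, 8.94% ± 0.788 both, 21.4% ± 5.25 only the second and 12.3% ± 2.34 neither. Haemoglobin-rich Fracture cells held a gene of the first set in 6.54% and of the second in 7.43%. The Fracture members were thus mixed in marker content, and at this depth 66.3% ± 2.91 of them carried at least 1 of the 3 marker genes, against 93.9% ± 1.88 in Control.

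**Figure D4:**
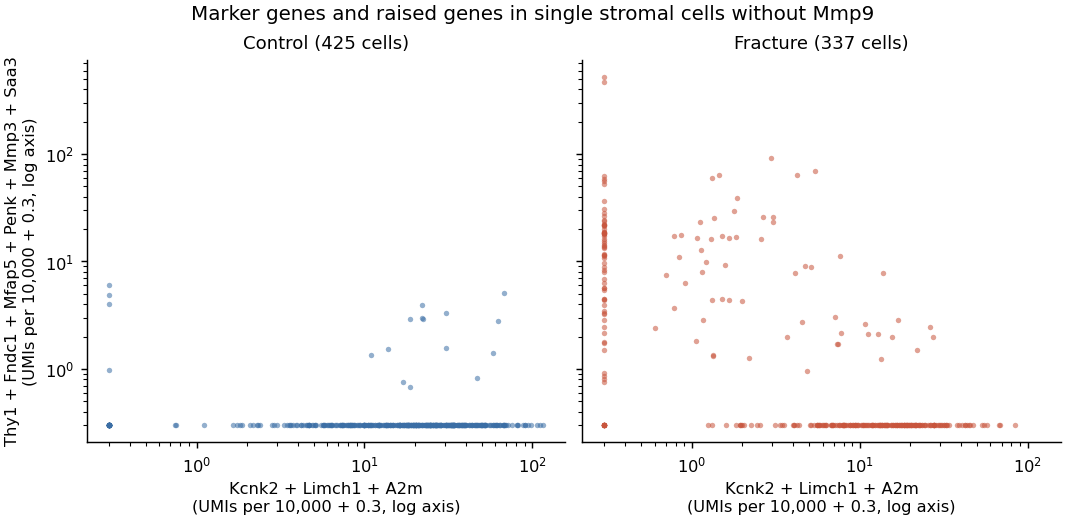
Summed UMIs per 10,000 of Kcnk2, Limch1 and A2m (horizontal log axis) against those of Thy1, Fndc1, Mfap5, Penk, Mmp3 and Saa3 (vertical log axis), with 1 point per cell and a small offset so that cells without UMIs are drawn. Of 425 Control members nearly all lie along the bottom, while the 337 Fracture members include cells high in the second set with no marker UMI.

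Whether the effect of fracture differed between the members and the Mmp9 cells was tested with a class-by-group term in edgeR, with the preparation as a block. Mmp9 and the other defining genes were left out. The limit on Mmp9 split the groups unequally, as 49 of 337 Fracture members and 34 of 425 Control members held 1 UMI of it. Of 9577 genes tested 62 (0.647%) differed, 32 (0.334%) with a more positive and 30 (0.313%) with a more negative effect in the members. For Fabp5 the difference of log2 effects was 3.51 ± 0.33 (SE, adjusted p = 0.000178). With only members at 0 UMIs of Mmp9, an alternative added after the data were seen, it was 3.50 ± 0.38 (adjusted p = 0.000979), 60 genes differed, and 55 of them were among the 62. The gene rose from a low level in the members and stood at 422 and 267 CPM in Control and 794 and 412 CPM in Fracture in the Mmp9 cells. Limch1 fell in the members and stood at 359 and 325 CPM and at 322 and 352 CPM in the Mmp9 cells (-1.04 ± 0.17, adjusted p = 0.0110). A2m was lower after fracture in both classes, and more so in the members (-1.38 ± 0.27, adjusted p = 0.0327). With members at 0 UMIs of Mmp9 the difference for A2m was not called (-1.20 ± 0.28, adjusted p = 0.0929). The difference for Kcnk2 missed the threshold (-0.91 ± 0.22, adjusted p = 0.105). Lepr fell in the members and stood at 135 and 78.0 CPM and at 124 and 123 CPM in the Mmp9 cells (-1.93 ± 0.28, adjusted p = 0.00383). Mmp14 rose in the members and stood at 1095 and 1258 CPM and at 1077 and 784 CPM in the Mmp9 cells (1.31 ± 0.23, adjusted p = 0.0177). The count was 222 without Control preparation 1 and 13 after thinning to 3000 UMIs. No difference was called for Hey1 (-0.26 ± 0.28), Heyl (0.19 ± 0.27), Runx2, Sp7 or Vegfa.

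Against the Adipoq cells 558 of 10777 genes (5.18%) differed in their fracture effect, 225 (2.09%) more positive and 333 (3.09%) more negative in the members. All 5 markers were among them. Kcnk2 fell in the members and stood at 155 and 153 CPM in Control and 388 and 398 CPM in Fracture in the Adipoq cells, a difference of -2.42 ± 0.20 (adjusted p = 1.07e-06). Postn, not called in the members, stood at 22.9 and 14.2 CPM and at 119 and 224 CPM in the Adipoq cells (-3.46 ± 0.28, adjusted p = 1.11e-06). At 3000 UMIs haemoglobin-rich cells held Postn in a mean of 3.31% in Control (1 of 18 and 1 of 94 cells) and 15.3% in Fracture (37 of 213 and 35 of 265). The part of free RNA in this difference was not tested. Limch1 (-1.94 ± 0.18), A2m (-2.51 ± 0.38) and Tnfrsf19 (-1.77 ± 0.17) differed in the same direction. Fabp5 rose more in the members than in the Adipoq cells (2.04 ± 0.28, adjusted p = 0.000185). Effects were also called more negative in the members for Esm1 (-1.58 ± 0.21), Sp7 (-1.88 ± 0.23), Runx2 (-0.85 ± 0.18), Vegfa (-1.05 ± 0.23) and Hey1 (-1.55 ± 0.36, adjusted p = 0.0148). Heyl was not called (0.88 ± 0.25, adjusted p = 0.0560), nor were Jag1, Notch3, Mmp14 and Mmp11. Lepr fell in both classes, to 602 and 578 CPM from 1566 and 1800 CPM in the Adipoq cells. The difference for Lepr was not called (-0.30 ± 0.17, adjusted p = 0.411). The count was 369 without Fracture preparation 2 and 100 after thinning. The Adipoq cells of Fracture were only 51 and 70, and both tests share the members' own samples, so that the differences against the Mmp9 and the Adipoq cells are not independent of each other.

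**Figure D5:**
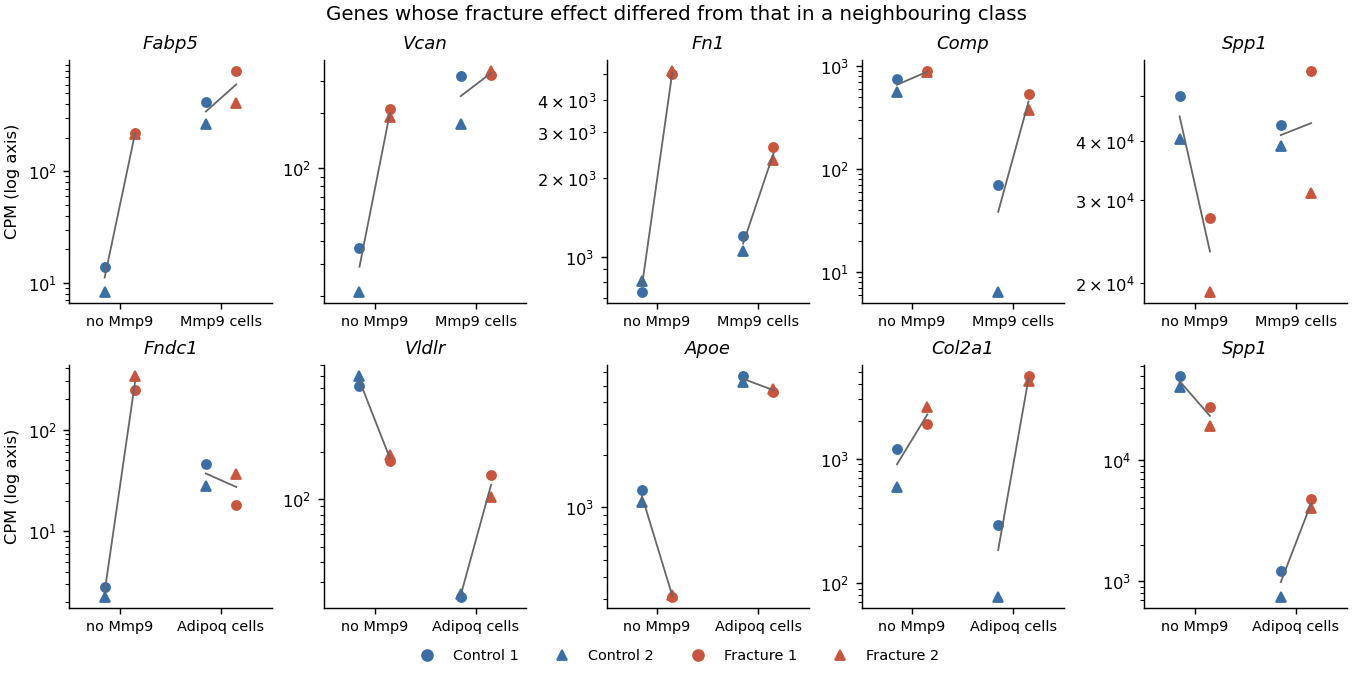
CPM on a log axis of genes whose fracture effect differed between the stromal cells without Mmp9 and the Mmp9 cells (upper row) or the Adipoq cells (lower row), with 1 point per preparation and grey lines joining the group means. Fabp5, Vcan and Fn1 rise more steeply without Mmp9 than with it, Comp less steeply, and Spp1 goes down in the stromal cells without Mmp9 while its mean goes up in both neighbours.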

How the data were processed

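Single-cell libraries were compared between Control and Fracture femurs. The deposited files hold raw UMI counts per gene and barcode, with no normalisation, and the authors' processing notes name bcl2fastq 2.19.1.403, UMI-tools 1.0.0, STAR 2.7.3a, Subread, featureCounts 1.6.4 and the build mm10. The methods of the study name STARsolo and EmptyDrops, and which step made these tables is not settled. Barcodes with 500 to 6000 genes and at most 25% mitochondrial UMIs were kept, 45328 of 48903. Gene positions are from GENCODE M21 (GRCm38).

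The 2 libraries of a preparation were summed, giving n = 2 per group. Counts summed over the cells of a class were tested with edgeR 4.0.16 (quasi-likelihood, TMM, filterByExpr, Benjamini-Hochberg at 0.05) in R 4.3.3, with DESeq2 1.42.0 as an alternative. CPM values are plain, and fold changes come from the fit. Standard errors are the log2 fold change over the square root of F. Shares were tested by exact permutation (scipy 1.17.1). Doublets were scored with scrublet in scanpy 1.11.5 at an expected 6%. Thinning drew a fixed number of UMIs per cell without replacement. On simulated counts of 9720 genes with 200 changed, the test of Fracture against Control recovered 64% of 2-fold and 93% of 4-fold changes, and 3.09% of 162 calls were false. The simulation drew each gene at the spread fitted for its level, with no spread of its own, and in the data 16.4% of genes were called. These rates therefore need not hold for the calls reported.

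The members and the gene lists were chosen with earlier results of these data known. Named were the markers and the genes the study uses for stroma, the 10 largest rises and falls among called genes with a mean of at least 20 CPM, up to 4 called genes per list, the genes with the highest ratios to other classes at 50 CPM or more, and up to 10 genes of lowest p per test of a difference in effect. Haemoglobin genes, markers of other cells and the genes of the definition were left out of the largest changes. Other genes in the text serve as list examples or were named after their values were seen. Some genes that the rule for named genes selects are not reported here.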

Additional observations from a re-analysis of the deposited data

Results flagged for a closer look

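The effect of fracture on 10 genes differed between the stromal cells without Mmp9 and the Mmp9 cells with the lowest p in the test of the difference itself (edgeR class-by-group term, adjusted p from 0.000178 to 0.00139, n = 2 preparations per group). The difference of log2 effects, members minus Mmp9 cells, was 3.51 for Fabp5, 4.34 for Aldh1a3, which encodes a retinaldehyde dehydrogenase, and 2.20 for the metallothionein gene Mt1. For the matrix genes it was 2.34 for Vcan, 1.56 for Fn1, 2.16 for Svep1, 1.67 for Aebp1 and 1.20 for Igfbp7. In the members alone the fracture effect of Svep1 turned from 1.68 to -0.38 after thinning to 3000 UMIs, and Igfbp7 was not called in the members with at least 2 UMIs of Kcnk2 and Limch1 (0.058, adjusted p = 0.850). It was negative for Spp1, at -1.01, and for Comp, at -2.95. Vcan stood at 36.8 and 21.2 CPM in the Control members and 210 and 191 CPM in the Fracture members, while the Mmp9 cells stood at 320 and 176 CPM and at 324 and 340 CPM. Comp, a cartilage matrix gene, stood at 751 and 565 CPM and at 893 and 871 CPM in the members, against 70.6 and 6.50 CPM and 530 and 374 CPM in the Mmp9 cells. It was detected in 59.8% of Fracture members and 64.7% of haemoglobin-rich Fracture cells at 3000 UMIs, and the part of free RNA was not tested.

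Against the Adipoq cells the 10 genes of lowest p gave differences of -3.21 for Spp1, 7.24 for Fndc1, -3.94 for Vldlr, 2.30 for Gpx3, 2.90 for Fst, -2.59 for Lrp4, 2.93 for Ptx3, -1.72 for Apoe, -3.49 for Col2a1 and -2.07 for Col1a1. In the Adipoq cells Spp1 went from 1221 and 747 CPM in Control to 4795 and 4034 CPM in Fracture. Over all cells other than the members it went from 3201 and 2274 CPM to 11839 and 10908 CPM. Col2a1 went from 290 and 77.8 CPM to 4610 and 4181 CPM in the Adipoq cells. The part of free RNA in the Spp1 and Col2a1 of the Adipoq cells was not tested. Fndc1 rose in the members and stood at 45.8 and 28.1 CPM in the Control Adipoq cells and 17.9 and 36.5 CPM in the Fracture ones. Vldlr, a lipoprotein receptor gene, fell from 521 and 599 CPM to 174 and 189 CPM in the members and stood at 24.3 and 25.2 CPM and at 143 and 103 CPM in the Adipoq cells. Apoe fell from 1255 and 1072 CPM to 308 and 315 CPM in the members and stood at 5669 and 5248 CPM and at 4595 and 4800 CPM in the Adipoq cells.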

How the results depend on the processing

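The precision is limited by 2 preparations per group. Counts of higher and lower genes were 882 and 760 as reported, 426 and 250 with DESeq2, all of them among the calls of edgeR, and 211 and 204 of 5197 genes after thinning to 3000 UMIs and renewed selection, where 23 and 14 of the called genes changed sign. With a fit that pools the spread and assumes the lone preparation of a group to vary like the other group, leaving out each preparation gave 442 to 1270 higher and 324 to 1033 lower genes, with 488 and 350 without Fracture preparation 1 and 442 and 324 without Fracture preparation 2, and no called gene changed sign. 3 alternatives were added after seeing the data. Limiting the members to Mmp9 at 0 UMIs gave 60 and 576 differences in effect against the Mmp9 and Adipoq cells, with no called gene of opposite sign. Keeping the genes that Control preparation 1 lacks gave 548 and 399, and the cells with at least 2 UMIs of Kcnk2 and Limch1 gave 372 and 281, with 4 and 6 called genes of opposite sign. The replicate block gave 1023 and 873. Deviations of same-numbered preparations correlated at 0.035, so that the numbers were not taken as pairs. The count against the Mmp9 cells was 62 as reported, 42 to 222 without single preparations, the highest without Control preparation 1, and 13 after thinning. Against the Adipoq cells it was 558, 369 to 638, the lowest without Fracture preparation 2, and 100 after thinning. The cause was not tested. With each library as its own replicate the differences in share were -0.659 and 19.3 percentage points (exact permutation p = 0.0286 for both), though libraries of 1 preparation are not independent. After thinning the second was 36.0 percentage points, and in the cells with Kcnk2 and Limch1 the differences were -0.907 and 10.1. Changed signs among named genes, as log2 fold changes, were Comp -0.68 (thinned) and -0.29 (cells with Kcnk2 and Limch1), Hes1 -0.25 (thinned), Hey1 0.35 and 0.35 (thinned, cells with Kcnk2 and Limch1), Heyl 0.27 and Notch3 0.16 (cells with Kcnk2 and Limch1), Lamb1 -0.069 and Svep1 -0.38 (thinned), Pi15 0.0061, 0.25 and 0.64 (replicate block, thinned, cells with Kcnk2 and Limch1), and Postn 0.020 and 0.16 (Mmp9 at 0, thinned). Without single preparations Hes1 ranged from -0.043 to 0.29, Hey1 from -0.49 to 0.14, Pi15 from -0.60 to 0.68 and Postn from -0.30 to 0.14. Of these genes Lamb1 and Svep1 alone had been called. Among the named genes 37 kept their sign but lost their call after thinning to 3000 UMIs, and 25 did so with DESeq2.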
